A study of Mus musculus with 11 samples.

Results

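The genes described here are 10 of the 48709 genes in a count table of mouse muscle stem cells. They are the ligand genes Hgf, Fgf2 and Igf1, the receptor genes Met, Fgfr1, Fgfr4, Igf1r and Insr, and the adaptor genes Irs1 and Irs2, chosen by symbol for their place in the HGF, FGF and IGF or insulin receptor systems. All 10 passed the filter on low counts, which left 31999 genes to be tested. RNA was sequenced from muscle stem cells (satellite cells) of C57BL/6 mice carrying Tg:Pax7-nGFP, a nuclear green fluorescent reporter driven by Pax7, the gene of the transcription factor by which satellite cells are recognised. The cells came from pectoral, forelimb and hindlimb muscle, and all groups carried the reporter. In T0 whole muscle was fixed (0.5% paraformaldehyde, 4°C, 1 h) before the cells were taken out. In T3 the cells were first isolated by FACS and then fixed in 0.5% paraformaldehyde for 30 min on ice. T5 was fixed like T3 but had a further 2 h at 37°C, which the sample protocol places on dissected muscle in DMEM before sorting and the series design places after isolation. The labels used here give no age, sex or number of animals. T3 against T0 asks what differed after isolation, T5 against T3 asks about the added 2 h, and T5 against T0 spans both. Isolation and the way of fixation (muscle or sorted cells) changed together between T0 and T3, and their effects cannot be told apart.

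There were 3 libraries of T0, 4 of T3 and 4 of T5. The counts of T5 libraries with the same letter in their title were summed, giving 2 replicates there (n = 3 for T0, n = 4 for T3, n = 2 for T5). Total counts per library were 49078859 to 67251946 (T0), 52632553 to 72638711 (T3) and 61837170 to 102347035 (T5). On the leading principal component (69% of the variance in log2 CPM) the T0 replicates lay at -118.4, -100.2 and -75.44 and all others between 43.79 and 54.74. T0 replicate 3, the nearest to the other groups, was the lowest T0 replicate for 6 of the 10 genes and the highest for 3. Pax7 stood at 3613 ± 719 CPM (SD, n = 3) in T0, 315 ± 64.7 CPM (n = 4) in T3 and 316 ± 13.1 CPM (n = 2) in T5. Levels are given as CPM, the count of a gene relative to its library's scaled total, and changes as log2 fold changes ± SE with Benjamini-Hochberg adjusted p from edgeR's quasi-likelihood test over the 31999 genes, called at an adjusted p under 0.05. Whether replicates were separate animals is not in the labels, and the p-values reflect only how far these samples spread, which may be technical. In such bulk samples, fewer cells expressing a gene and less RNA per cell cannot be told apart.

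HGF is stored in the matrix around muscle fibres as an inactive precursor, is cut by proteases after injury, and signals through the receptor tyrosine kinase MET. FGF2 signals through FGF receptors with the help of heparan sulphate, and FGFR1 and FGFR4 are the receptors best known in satellite cells. IGF1 binds the IGF1 receptor, a close relative of the insulin receptor, and both receptors pass the signal on through the adaptors IRS1 and IRS2 to PI3 kinase, AKT and mTOR, and through RAS to the ERK kinases. HGF with MET, and FGF2, are known for bringing quiescent satellite cells into the cell cycle.

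Promoter sequences of the RefSeq table (GRCm38.p6) matched 8 of the 10 genes. Those of Irs1, Irs2 and Met are shown because the adaptor genes moved in opposite directions from T0 to T3 while Met rose with Irs2. The stretches are given on the gene's strand, 5′ to 3′, and lie at chr1:82291440-82291689 (minus strand) for Irs1, chr8:11008930-11009179 (minus strand) for Irs2 and chr6:17463707-17463799 (plus strand) for Met. For Irs1 and Irs2 they are the 250 bases before the RefSeq start, and for Met the first 93 bases of that window, up to the start of the annotated gene. Capitals mark matches on either strand to the E-box CANNTG or to the Sp1 motif GGGCGG.
Irs1: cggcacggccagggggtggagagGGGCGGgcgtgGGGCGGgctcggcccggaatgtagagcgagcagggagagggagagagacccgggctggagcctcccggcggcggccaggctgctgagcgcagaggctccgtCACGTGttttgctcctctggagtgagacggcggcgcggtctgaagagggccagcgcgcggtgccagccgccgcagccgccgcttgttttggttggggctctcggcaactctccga
Irs2: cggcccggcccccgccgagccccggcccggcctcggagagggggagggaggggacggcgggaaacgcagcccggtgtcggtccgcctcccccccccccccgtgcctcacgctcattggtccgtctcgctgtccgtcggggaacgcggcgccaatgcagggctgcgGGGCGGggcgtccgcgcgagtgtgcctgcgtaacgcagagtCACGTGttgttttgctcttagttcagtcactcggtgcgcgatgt
Met: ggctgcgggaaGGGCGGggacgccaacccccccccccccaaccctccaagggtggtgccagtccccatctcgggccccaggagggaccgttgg
Irs1 and Irs2 each held 1 E-box, spelled CACGTG in both, with 2 and 1 Sp1 matches. The printed part of the Met promoter held 1 Sp1 match. Over the whole window of 250 bases before to 50 bases after the start, Met had 3 Sp1, 2 E-box and 1 AP-1 (TGANTCA) matches, and neither adaptor gene had an AP-1, CRE (TGACGTCA), EGR (GCGTGGGCG) or FOXO (GTAAACA) match. Among 32817 promoter windows of that length, 72.3% held an E-box, 35.6% an Sp1, 7.81% an AP-1, 1.79% a CRE, 0.612% an EGR and 3.65% a FOXO match. These matches describe letters in a window and no binding was measured.

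Of the 3 ligand genes, Igf1 changed and Hgf and Fgf2 were not called in any comparison. Hgf (ENSMUSG00000028864.7, GRCm38 chromosome 5, 16553495 to 16620152, plus strand) stood at 2.38, 2.44 and 3.63 CPM in T0, at 3.63, 3.1, 2.98 and 2.26 CPM in T3 and at 3.28 and 3.7 CPM in T5. The groups overlapped in all 3 comparisons, and T3 against T0 gave a log2 fold change of 0.08 ± 0.23 (adjusted p = 0.822). Hgf was the lowest of the 10 genes per length of exon, at 0.392 CPM per kb in T0, 0.417 in T3 and 0.486 in T5. As a background, 1318 olfactory receptor, vomeronasal receptor and defensin genes were taken as genes silent in muscle. Their mean was 0.0517 to 0.0808 CPM per kb of exon in T0 and T3 and 0.079 to 0.0798 in T5. Hgf stood above this mean in each group on that scale. Per kb of the whole gene Hgf was at 0.0423 CPM in T0, 0.0449 in T3 and 0.0524 in T5. The background was not computed on that scale, so whether Hgf exceeds it there was not tested.

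Fgf2 (ENSMUSG00000037225.13, chromosome 3, 37348346 to 37410108, plus strand), a ligand of FGFR1 that is made without a signal peptide, stood at 35.6, 28.4 and 23.2 CPM in T0, at 19.4, 33.3, 18.3 and 22 CPM in T3 and at 31.1 and 25.6 CPM in T5. The 3 groups overlapped, with a log2 fold change of -0.32 ± 0.23 for T3 against T0 (adjusted p = 0.306) and 0.29 ± 0.25 for T5 against T3 (adjusted p = 0.663). The value is uncertain because 4 other genes overlap Fgf2 and the counts do not separate strands. Gm43439, on the same strand, had 73.9 to 141% of the count of Fgf2, and Nudt6, the gene on the opposite strand known as the FGF2 antisense gene, had 35.2 to 81.8%. Both neighbours fell in T3 against T0, each by the same estimate, log2 -1.02 (adjusted p = 0.000403 for Gm43439 and 0.00109 for Nudt6).

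Igf1 (ENSMUSG00000020053.18, chromosome 10, 87858265 to 87937042, plus strand) stood at 30.5, 29.4 and 38.2 CPM in T0, at 8.87, 8.82, 12.9 and 8.57 CPM in T3 and at 27 and 24.7 CPM in T5. Every T3 replicate lay below every replicate of the other groups, and the 2 T5 sums lay below T0 without overlap. Igf1 fell 3.34-fold in T3 against T0 (log2 -1.74 ± 0.21, adjusted p = 4.02e-07) and rose 2.64-fold in T5 against T3 (log2 1.40 ± 0.22, adjusted p = 0.000665). T5 against T0 was not called (log2 -0.34 ± 0.25, adjusted p = 0.289). The antisense gene Igf1os overlaps it with 8.58 to 34% of its count and was not called in any comparison.

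Fibroblast-lineage cells also make IGF1. Their 11 markers summed to 878 to 1288 CPM in T0, 479 to 814 CPM in T3 and 649 to 653 CPM in T5, with 3 markers higher and 3 lower in T3 than in T0. The sum was carried by Col3a1 (490, 261 and 395 CPM in T0, T3 and T5) and Gsn (414, 220 and 134 CPM). The defining markers Pdgfra (3.27, 4.09 and 5.07 CPM) and Dcn (12, 15.3 and 11.9 CPM) were not called in T3 against T0 or T5 against T3. The 3 markers that were higher in T3 than in T0 went the other way from Igf1, and their replicates overlapped between T0 and T3. Col1a1 was at 6.79, 15.6 and 35.1 CPM in T0, T3 and T5 (adjusted p = 0.0195 for T3 against T0). Col1a2 was at 4.82, 12.1 and 17.2 CPM (0.00372) and Smoc2 at 7.07, 10.9 and 11.4 CPM (0.0412). The 3 lower markers, Col3a1, Gsn and Dpt (127, 76.4 and 36.3 CPM), went the same way as Igf1 from T0 to T3. Of these 3, only Col3a1 was lowest in T3, as Igf1 was, and the replicates of Dpt overlapped between T0 and T3. No marker was at 0. Erythroid markers summed to 33.5 to 35 CPM in T0, 9.8 to 24.9 CPM in T3 and 22.3 to 33.3 CPM in T5. The part of such cells in the Igf1 result was not tested.

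Met (ENSMUSG00000009376.15, chromosome 6, 17463800 to 17573980, plus strand), the HGF receptor gene, stood at 123, 86.5 and 102 CPM in T0, at 378, 278, 328 and 347 CPM in T3 and at 274 and 249 CPM in T5. All T3 and T5 replicates were above all T0 replicates, and the 2 T5 sums lay just below T3. Met rose 3.2-fold in T3 against T0 (log2 1.68 ± 0.22, adjusted p = 1.35e-06) and was 2.51-fold higher in T5 than in T0 (log2 1.33 ± 0.24, adjusted p = 0.000135). T5 against T3 was not called (log2 -0.35 ± 0.24, adjusted p = 0.568). No other gene overlaps Met in the annotation.

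Fgfr1 (ENSMUSG00000031565.18, chromosome 8, 25513654 to 25575718, plus strand), a main FGF receptor of activated satellite cells, stood at 1032, 854 and 456 CPM in T0, at 3974, 3702, 3568 and 4439 CPM in T3 and at 1591 and 1658 CPM in T5. The 3 groups did not overlap: T0 was lowest, T5 was intermediate and T3 was highest. Fgfr1 rose 5.02-fold in T3 against T0 (log2 2.33 ± 0.27, adjusted p = 3.62e-07) and fell 2.41-fold in T5 against T3 (log2 -1.27 ± 0.30, adjusted p = 0.0247). It remained above T0 in T5 (log2 1.06 ± 0.30, adjusted p = 0.00691). The antisense gene Gm16159 within it had 8.49 to 12.9% of its count and was called in the same direction in each comparison. The counts do not separate strands, so reads of Fgfr1 can be counted for Gm16159 as well. The calls of Gm16159 are therefore no result separate from those of Fgfr1. The fall in T5 against T3 was lost under 5 of 15 alternatives: with DESeq2 size factors (adjusted p = 0.0569) and without T3 replicate 1 (0.0562), T3 replicate 4 (0.0658), T5 replicate A (0.354) or T5 replicate B (0.324), within a range of 0.000742 to 0.354. The call of T5 against T0 was lost without T5 replicate B (adjusted p = 0.0549, range 0.000181 to 0.0549).

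Fgfr4 (ENSMUSG00000005320.9, chromosome 13, 55152640 to 55168759, plus strand), an FGF receptor of quiescent and differentiating muscle cells, went the other way. It stood at 886, 605 and 456 CPM in T0, at 120, 102, 159 and 115 CPM in T3 and at 93.4 and 84.6 CPM in T5. The lowest T0 replicate was above every T3 and T5 replicate, and the 2 T5 sums lay below T3. Fgfr4 fell 5.22-fold in T3 against T0 (log2 -2.39 ± 0.24, adjusted p = 4.29e-08) and was 7.29-fold lower in T5 than in T0 (log2 -2.87 ± 0.32, adjusted p = 4.03e-07). The further difference between T5 and T3 was not called (log2 -0.48 ± 0.27, adjusted p = 0.473). No other gene overlaps Fgfr4.

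Igf1r (ENSMUSG00000005533.10, chromosome 7, 67952827 to 68233668, plus strand), the IGF1 receptor gene, stood at 948, 841 and 636 CPM in T0, at 463, 513, 563 and 615 CPM in T3 and at 618 and 637 CPM in T5. T0 and T3 did not overlap, while the lowest T0 replicate, 636 CPM, lay within the range of T5. Igf1r fell 1.5-fold in T3 against T0 (log2 -0.59 ± 0.21, adjusted p = 0.0326). This call was lost under 11 of 16 alternatives, with adjusted p from 0.00159 to 0.122, among them upper quartile factors (log2 -0.27, adjusted p = 0.109), DESeq2 size factors (0.0869), no filter on low counts (0.0524), a fit of the 2 groups alone (0.0766) and the fits without T0 replicate 1 (0.122), T0 replicate 2 (0.105), T3 replicate 1 (0.11), T3 replicate 2 (0.0842), T3 replicate 3 (0.0545), T5 replicate A (0.0839) or T5 replicate B (0.0655). T5 against T0 was not called (log2 -0.37 ± 0.26, adjusted p = 0.278) except without T0 replicate 3 (log2 -0.51, adjusted p = 0.0329, range 0.0329 to 0.988).

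Insr (ENSMUSG00000005534.10, chromosome 8, 3122061 to 3279617, minus strand), the insulin receptor gene, stood at 203, 195 and 109 CPM in T0, at 64.2, 76.3, 71.7 and 74.5 CPM in T3 and at 63.1 and 64.1 CPM in T5. Every T0 replicate was above every other replicate. Insr fell 2.36-fold in T3 against T0 (log2 -1.24 ± 0.22, adjusted p = 5.92e-05) and was 2.66-fold lower in T5 than in T0 (log2 -1.41 ± 0.27, adjusted p = 0.000238). The 2 genes that overlap it each had at most 0.463% of its count.

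Irs1 (ENSMUSG00000055980.2, chromosome 1, 82233101 to 82291416, minus strand), an adaptor that links both receptors to PI3 kinase, stood at 257, 186 and 343 CPM in T0, at 38.1, 37.6, 61.9 and 37.5 CPM in T3 and at 50.7 and 48.8 CPM in T5. T0 lay above both other groups without overlap, and T5 lay within the range of T3. Irs1 fell 5.98-fold in T3 against T0 (log2 -2.58 ± 0.24, adjusted p = 1.63e-08), the largest fall among the 10 genes, and was 5.26-fold lower in T5 than in T0 (log2 -2.40 ± 0.31, adjusted p = 2.53e-06). Gm9747, which lies within it on the opposite strand, had 4.31 to 7.37% of its count and fell with it. The counts do not separate strands, so reads of Irs1 can be counted for Gm9747 as well. The fall of Gm9747 is therefore no separate result.

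Irs2 (ENSMUSG00000038894.7, chromosome 8, 10984681 to 11008458, minus strand), the second widely used adaptor of the family, stood at 119, 97.9 and 48.5 CPM in T0, at 146, 155, 161 and 157 CPM in T3 and at 141 and 129 CPM in T5. All T3 and T5 replicates were above all T0 replicates. Irs2 rose 1.75-fold in T3 against T0 (log2 0.81 ± 0.24, adjusted p = 0.0103). T5 against T0 was not called (log2 0.61 ± 0.28, adjusted p = 0.0997), but was with upper quartile factors (log2 1.01, adjusted p = 0.00147), with the 4 T5 libraries as replicates (0.0481), with the 2 groups alone (0.0389) and without T0 replicate 1 (0.0155), within a range of 0.00147 to 0.32. 9530052E02Rik, on the opposite strand, had 13.8 to 22.8% of its count and was not called.

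**Figure D1:**
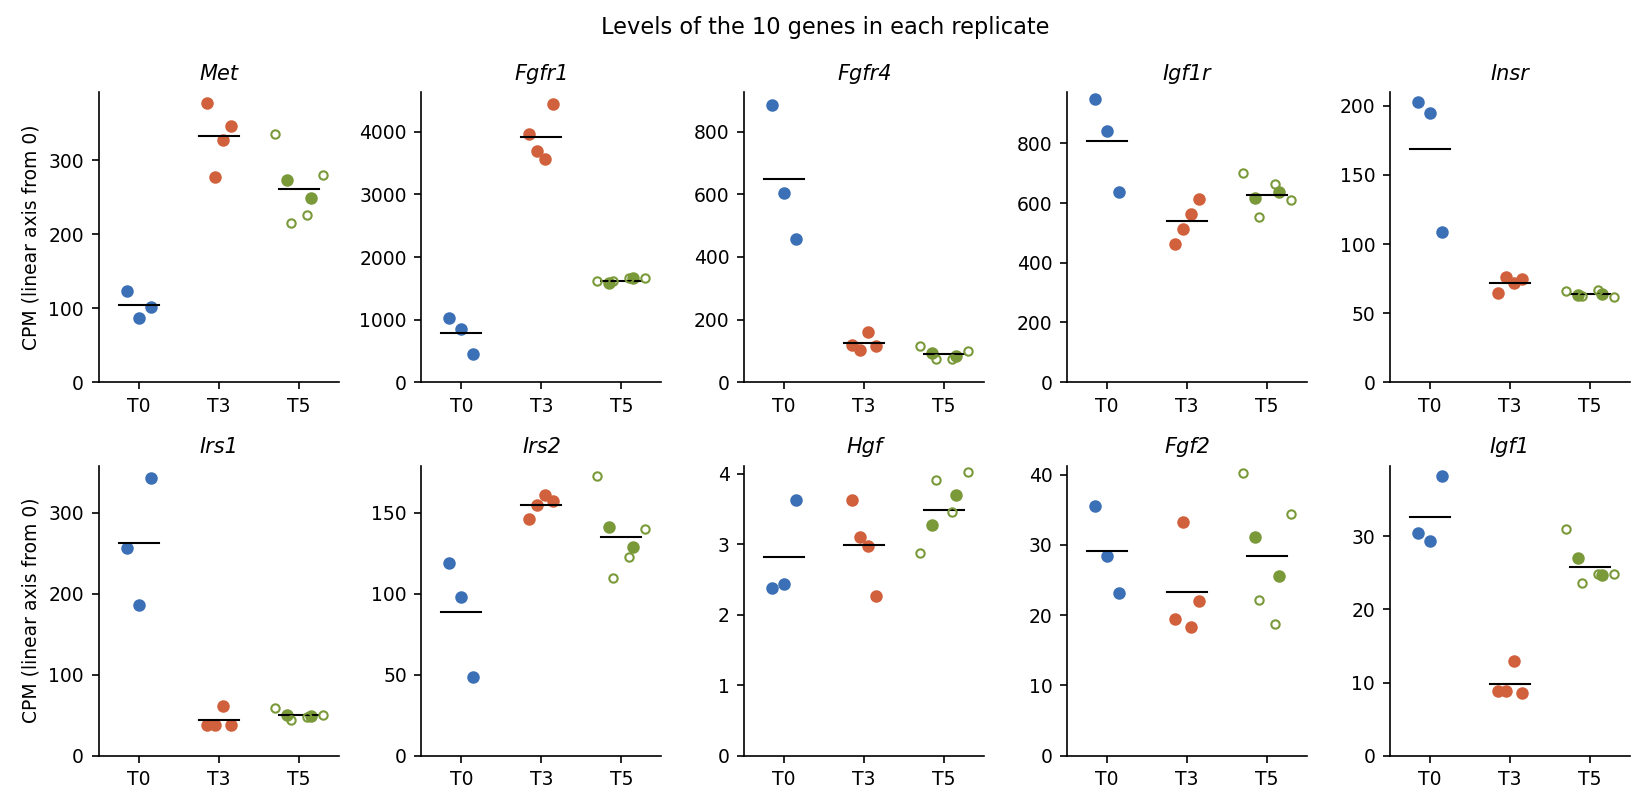
Levels of the 10 genes in CPM on linear axes from 0, 1 panel a gene; filled points are the replicates, lines the group means and open points the 4 T5 libraries before they were added up. The T3 points of Met, Fgfr1 and Irs2 sit above the T0 points, those of Fgfr4, Igf1r, Insr, Irs1 and Igf1 sit below them, and Hgf and Fgf2 overlap.

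Counted together, 3 of the 10 genes were higher in T3 than in T0 (Met, Fgfr1 and Irs2), 5 were lower (Fgfr4, Igf1r, Insr, Igf1 and Irs1) and 2 were not called. Of all genes tested, 37.9% were called in that comparison, 15% as higher and 22.9% as lower. The groups did not overlap for 8 of the 10 genes, against 38.3% of all genes. Over all genes tested, the log2 fold change had a median of 0.05 with TMM scaling and 0.32 with upper quartile factors, and the share of calls that were lower went from 60.4% to 44.7%. None of the 10 genes changed direction where it was called, under any scaling.

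In T5 against T3, 1 of the 10 genes was higher (Igf1), 1 was lower (Fgfr1) and 8 were not called, where 2.17% of all genes were called, 1.28% as higher and 0.888% as lower. The replicates of 7 genes did not overlap, against 38.2% of all genes tested. Except for Fgfr1 and Igf1, this held only for the T5 sums and not for the single T5 libraries. In T5 against T0, 2 were higher (Met and Fgfr1), 3 were lower (Fgfr4, Insr and Irs1) and 5 were not called, where 35.7% of all genes were called, 13.2% as higher and 22.5% as lower. The replicates of 7 genes did not overlap, against 59.3% of all genes tested. For Igf1 and Irs2 among them, this again held only for the sums. With upper quartile factors the median over all genes went from 0.18 to 0.51 (log2), and the share of calls in T5 against T0 that were lower from 62.9% to 44.1%. T3 serves in the comparisons with both T0 and T5, and T0 in those with T3 and T5, so the comparisons share samples and are given side by side only.

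**Figure D2:**
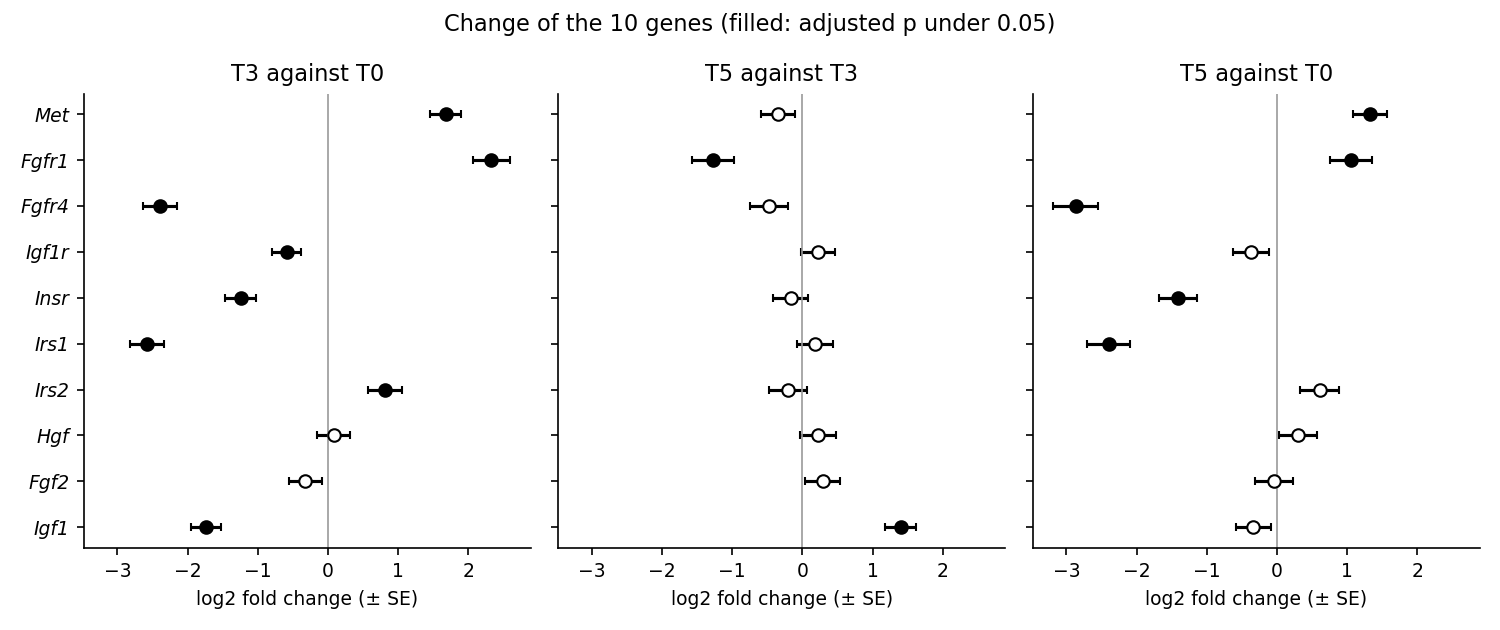
Log2 fold change (x axis, bars ± SE) of the 10 genes in the 3 comparisons, filled where the adjusted p was under 0.05. T3 against T0 has 8 filled points from -2.58 (Irs1) to 2.33 (Fgfr1), T5 against T3 has 2 filled points, -1.27 (Fgfr1) and 1.40 (Igf1), and T5 against T0 has 5.

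Ratios of related genes within a replicate do not depend on library scaling. The log2 ratio of Fgfr1 to Fgfr4 counts was 0.22, 0.50 and 0.00 in T0, 5.05, 5.18, 4.48 and 5.26 in T3 and 4.09 and 4.29 in T5. The counts of both receptor genes were therefore close to equal in T0, and in T3 Fgfr1 had 22.4 to 38.4 times the count of Fgfr4. The log2 ratio of Igf1r to Insr was 2.29 ± 0.23 (SD, n = 3) in T0, 2.90 ± 0.13 (n = 4) in T3 and 3.30 ± 0.01 (n = 2) in T5. Igf1r had the higher count throughout, and the 3 groups did not overlap, from 2.11 to 2.54 in T0 and 2.75 to 3.05 in T3 up to 3.29 and 3.31 in T5.

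The log2 ratio of Irs1 to Irs2 was 1.11, 0.92 and 2.82 in T0, -1.94, -2.04, -1.38 and -2.06 in T3 and -1.47 and -1.41 in T5. Irs1 had the higher count in every T0 replicate and Irs2 in every other replicate. The T3 minus T0 differences of the mean log2 ratios were 4.76 for Fgfr1 to Fgfr4, 0.62 for Igf1r to Insr and -3.47 for Irs1 to Irs2. An exact two-sided permutation test gave p = 0.0571 for each (adjusted over the 3 tests 0.0571), the smallest that 3 against 4 replicates can give, so the design cannot reach 0.05.

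**Figure D3:**
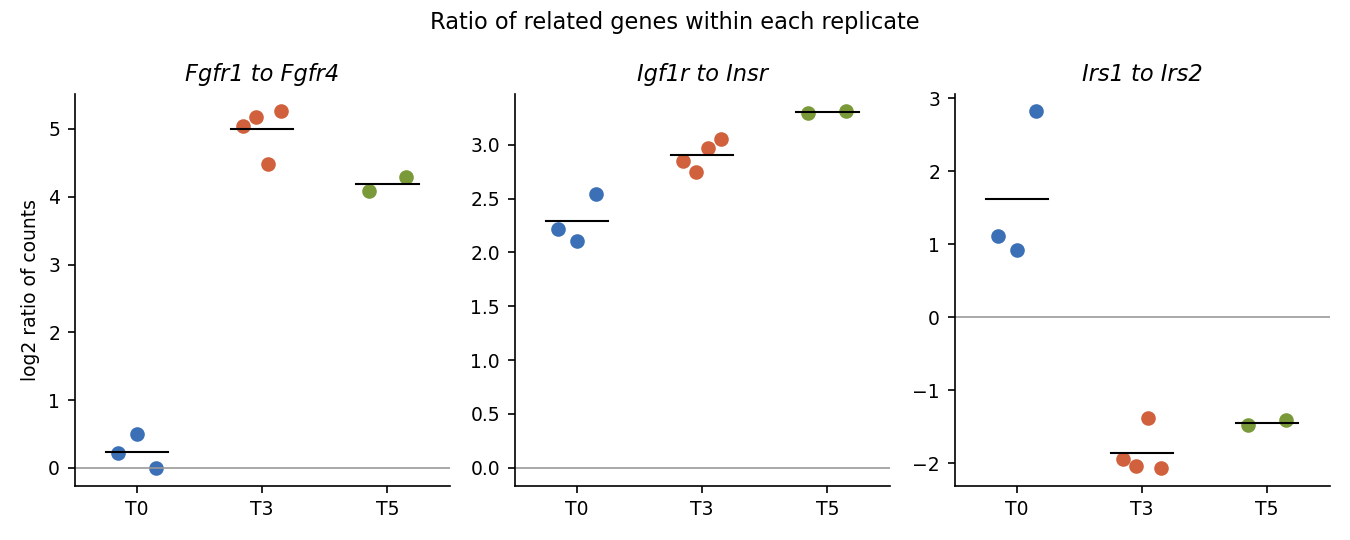
Log2 ratio of counts (y axis) within each replicate for 3 pairs of related genes, with points for replicates and lines for group means. Fgfr1 to Fgfr4 goes from a mean of 0.24 in T0 to values of 4.48 to 5.26 in T3, Igf1r to Insr from 2.29 to 2.90, and Irs1 to Irs2 from 1.62 to -1.86, below the line of equal counts.

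Set against each other per kb of exon, Fgfr4 was the highest of the 10 genes in T0 at 183 CPM per kb, above Fgfr1 (79.1) and Igf1r (48.1), whose replicates overlapped. Irs1 followed at 28.6, then Irs2 (14), Met (13.5) and Insr (12.3), which did not differ beyond their spread. Fgf2 (4.29) and Igf1 (3.3) overlapped each other and stood above Hgf. In T3, Fgfr1 was highest at 397 CPM per kb and lay above all others without overlap. Met (43.3), Fgfr4 (35.1) and Igf1r (32.1) overlapped with their neighbours in that order, Irs2 followed at 24.5, and Insr (5.22), Irs1 (4.79) and Fgf2 (3.43) overlapped likewise, above Igf1 (0.988) and Hgf. In T5, Fgfr1 (164) led again, followed by Igf1r (37.4), Met (34.1), Fgfr4 (25.1) and Irs2 (21.4), with Irs1 (5.44), Insr (4.63), Fgf2 (4.18) and Igf1 (2.61) below. The replicates of neighbours in T5 did not overlap, but with only 2 sums a gene this says little about their order.

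The order depends on the length used. The kit was directional, but the counts hold reads of both strands, as Tsix had 1.004 to 1.014 times the count of Xist, the gene on the opposite strand, and whether introns were counted is not given in the sources used here. Per kb of the whole gene, a scale added after seeing the data, the top gene was the same in each group (Fgfr4 at 40.3 in T0, Fgfr1 at 63.2 in T3 and 26.2 in T5) and Hgf stayed last. Igf1r, which spans 280.8 kb, moved from rank 3 to rank 5 in T0, and Irs2, which spans 23.8 kb, from rank 5 to rank 2 in T5.

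**Figure D4:**
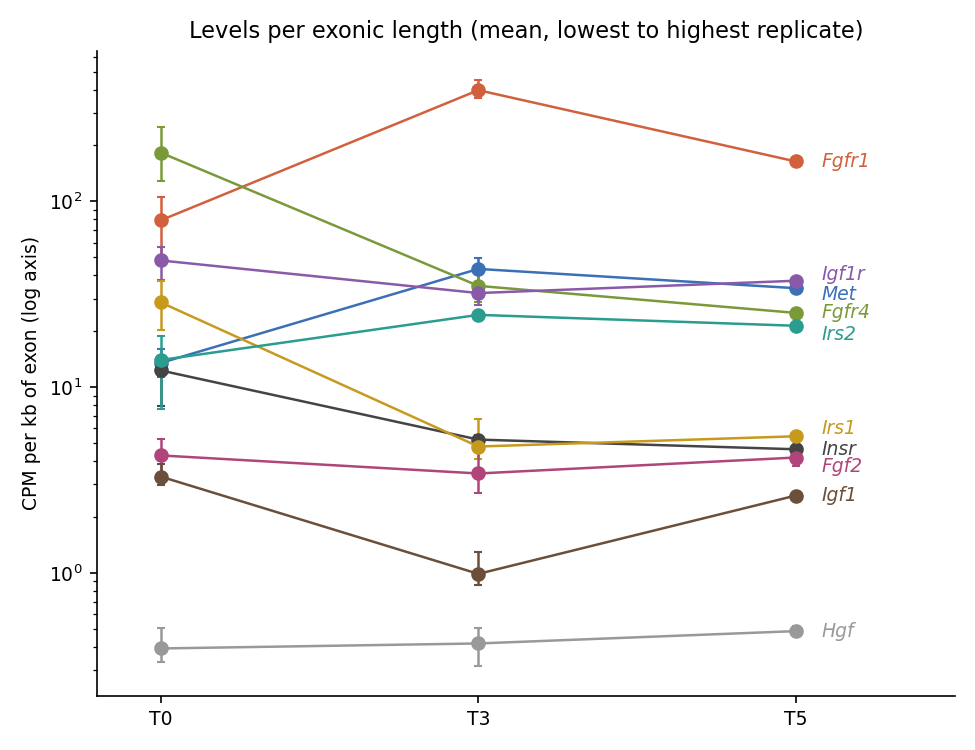
Mean level in CPM per kb of exon (log axis) of each gene in T0, T3 and T5, with bars from the lowest to the highest replicate. Fgfr4 leads in T0 at 183 and Fgfr1 in T3 at 397 and in T5 at 164, Met climbs from 13.5 to 43.3, and Hgf stays lowest.

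The 4 T5 libraries show how far summing by letter hides spread. Fgfr1 was at 1625, 1622, 1671 and 1662 CPM in them, a coefficient of variation of 1.52%. Met was at 336 and 216 CPM in the libraries of letter A and at 226 and 280 CPM in those of letter B, a coefficient of 21% against 6.91% over the 2 sums. Fgf2 varied most, at 40.2, 22.1, 18.8 and 34.4 CPM (35.1% against 13.8%). For Met and Fgf2 the libraries of a letter were far apart, while for Fgfr1 they were closer to each other than to those of the other letter. Igf1, at 31, 23.6, 24.9 and 24.8 CPM, was above the highest T3 replicate in each of the 4 libraries. Some gaps between groups held only for the sums. A letter A library reached into the T0 libraries for Igf1 (31 against 29.9 to 39.2 CPM) and Irs2 (110 against 49.7 to 122 CPM). T5 libraries also reached into the T3 libraries for Met (336 and 280 against 276 to 383 CPM) and Fgfr4 (114 against 101 to 159 CPM). So they did for Igf1r (552 and 610 against 469 to 613 CPM) and Insr (65.9 and 67 against 65 to 75.8 CPM). For Irs2, a letter A library (173 CPM) lay above all T3 libraries (148 to 161 CPM), although both sums lay below T3. Of the genes whose sums lay apart from T3, only Fgfr1 and Igf1 did so in every library.

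Of 137 other genes of these pathways in 5 lists, 43 were higher and 33 lower in T3 than in T0, or 55.5% called against 37.9% of all genes, with a median log2 fold change of 0.17 against 0.05. In the HGF and MET list, 10 of 24 rose and 2 fell (median 0.22). Gab2, an adaptor that docks on activated receptors, rose from 86.2 ± 30.7 to 675 ± 168 CPM (log2 2.97 ± 0.29, adjusted p = 2.52e-08), and Plat, the tissue plasminogen activator gene, from 20.3 ± 6.43 to 58.2 ± 5.02 CPM (log2 1.52 ± 0.23, adjusted p = 8.97e-06). Shc1, an adaptor towards RAS, rose less (log2 0.63 ± 0.20, adjusted p = 0.0163), a call lost without T3 replicate 2 (adjusted p = 0.0593, range 5.37e-05 to 0.0593). Adam10, a protease that sheds surface proteins, fell from 95.2 ± 15.4 to 64.4 ± 5.36 CPM (log2 -0.56 ± 0.19, adjusted p = 0.0227), a call lost under 10 of 16 alternatives (range 0.000584 to 0.0866).

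In the FGF list, 9 of 30 rose and 8 fell (median 0.11). Sdc4, a heparan sulphate proteoglycan that serves FGF receptors as a coreceptor, rose from 150 ± 58.5 to 939 ± 161 CPM (log2 2.64 ± 0.28, adjusted p = 9.42e-08). Fgf18, one of the ligand genes, rose from 2.15 ± 0.992 to 6.25 ± 1.31 CPM (adjusted p = 6.53e-05). Klb, a coreceptor of endocrine FGFs, rose from 2.62 ± 0.461 to 6.23 ± 0.721 CPM (adjusted p = 5.57e-05). Sdc2, another syndecan, fell from 115 ± 22.6 to 61.2 ± 14 CPM (log2 -0.90 ± 0.22) and Fgfbp3, an FGF binding protein gene, fell at a low level, from 1.16 ± 0.476 to 0.379 ± 0.103 CPM. Fgfr2 had 2479 CPM in T0, but at least 65 other genes overlap it in the annotation. Those 65 had 26.7 to 36.6% of its count between them, so its level is not compared with Fgfr1 and Fgfr4.

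In the IGF and insulin list, 4 of 29 rose and 9 fell (median 0.10). Igf2bp2, an RNA binding protein gene named for Igf2 mRNA, rose from 6.49 ± 1.77 to 90.9 ± 4.93 CPM (log2 3.80 ± 0.24, adjusted p = 8.66e-11). Ptpn1, a phosphatase that switches off the insulin receptor, rose from 55.5 ± 16.6 to 173 ± 26.9 CPM (log2 1.64 ± 0.23). Igfbp6 rose from 1.02 ± 0.215 to 2.31 ± 1.53 CPM (log2 1.18 ± 0.36, adjusted p = 0.0101), which rested on T3 replicate 3 (log2 0.60, adjusted p = 0.115 without it, range 0.000572 to 0.115). Stc2, whose protein stanniocalcin 2 blocks the release of IGF from its binding proteins, fell from 9.76 ± 1.55 to 2.72 ± 0.514 CPM (log2 -1.85 ± 0.22). Igfbp4, an IGF binding protein gene, fell from 97.6 ± 31 to 32.1 ± 10.6 CPM (log2 -1.60 ± 0.25), and Sh2b1, an adaptor of the insulin receptor, fell from 45 ± 13.2 to 20.3 ± 5.15 CPM (log2 -1.15 ± 0.23).

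In the PI3 kinase, AKT and mTOR list, 10 of 30 rose and 7 fell (median 0.05). Eif4ebp1, a translation repressor that mTOR switches off, rose from 27.8 ± 9.87 to 131 ± 21.4 CPM (log2 2.23 ± 0.25, adjusted p = 2.39e-07), and Akt2 rose from 64.6 ± 19.4 to 128 ± 18.9 CPM (log2 0.99 ± 0.23). Rictor, of the second mTOR complex, rose (log2 0.58 ± 0.22, adjusted p = 0.0353), a call that was lost under 6 of 16 alternatives (range 0.000114 to 0.116). In the RAS and ERK list, 10 of 24 rose and 7 fell (median 0.39). The ERK-activated kinase gene Rps6ka3 rose from 149 ± 21.1 to 691 ± 138 CPM (log2 2.21 ± 0.23), while its relative Rps6ka2 fell from 46.9 ± 8.27 to 20.7 ± 0.663 CPM (log2 -1.18 ± 0.19). The RAS genes Nras (log2 0.87 ± 0.21) and Hras (log2 0.68 ± 0.21) rose.

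**Figure D5:**
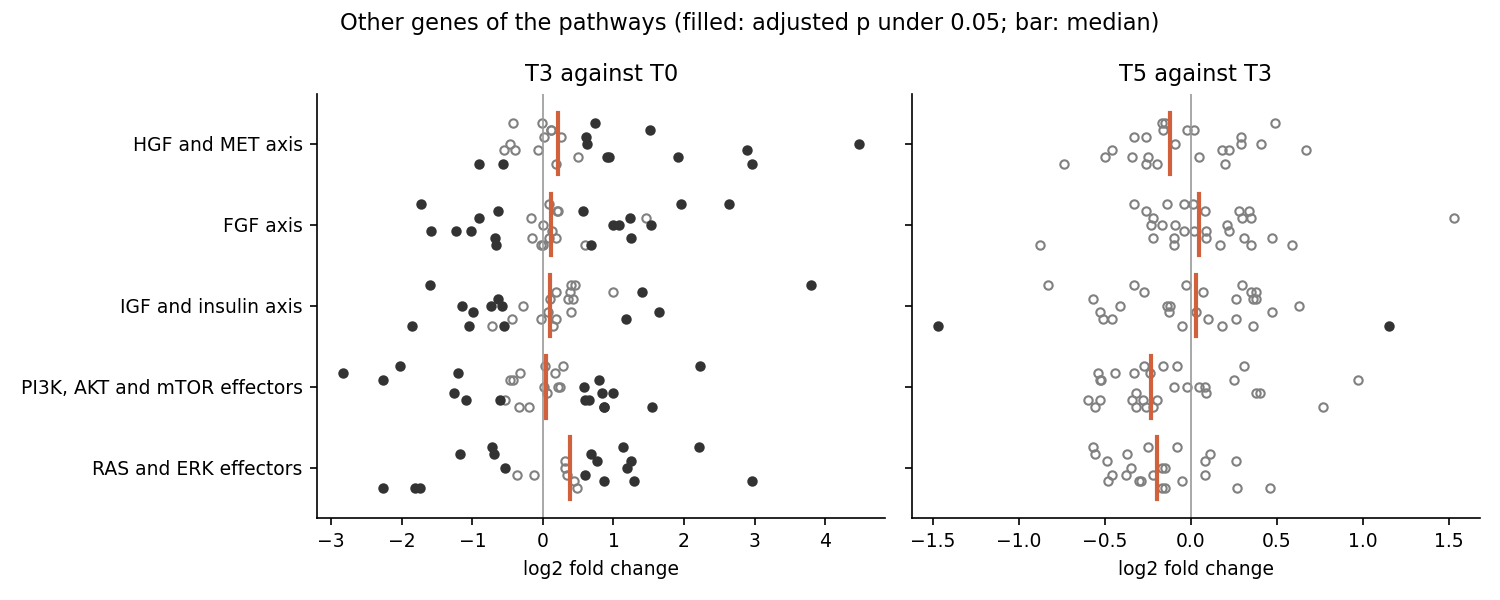
Log2 fold change (x axis) of the 137 other pathway genes by list for T3 against T0 and T5 against T3, filled where the adjusted p was under 0.05, with a bar at each list's median. The medians for T3 against T0 run from 0.05 to 0.39 with filled points on both sides of 0, and T5 against T3 has 2 filled points, both in the IGF and insulin list.

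In T5 against T3, 1 of the 137 genes was higher and 1 lower, or 1.46% called against 2.17% of all genes. Both act on IGF availability. Stc2 rose from 2.72 ± 0.514 to 6.03 ± 0.652 CPM (log2 1.15 ± 0.24, adjusted p = 0.00713), which was lost without T5 replicate A (0.0714) or B (0.272, range 0.00035 to 0.272). Igfbp5, an IGF binding protein gene, fell from 121 ± 57.1 to 43.9 ± 0.769 CPM (log2 -1.47 ± 0.37, adjusted p = 0.0367), which was lost with upper quartile factors (0.133) and without T3 replicate 1 (0.0787), 3 (0.0956) or 4 (0.063) or T5 replicate A (0.261) or B (0.283), within a range of 0.000174 to 0.283. Stc2, like Igf1, was lowest in T3.

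In T5 against T0, 31 of the 137 genes were higher and 27 lower, or 42.3% called against 35.7% of all genes, with a median of 0.16 against 0.18. By list, 7 were higher and 2 lower of 24 for HGF and MET, 8 and 4 of 30 for FGF, 4 and 6 of 29 for IGF and insulin, 4 and 8 of 30 for PI3 kinase, AKT and mTOR, and 8 and 7 of 24 for RAS and ERK. Gab2 (log2 2.23 ± 0.30), Sdc4 (2.32 ± 0.30), Igf2bp2 (3.47 ± 0.25), Eif4ebp1 (2.54 ± 0.28) and Rps6ka3 (1.64 ± 0.26) were higher, and Igfbp4 (-2.43 ± 0.33), Igfbp5 (-2.18 ± 0.40), Fgfbp3 (-1.58 ± 0.41), Sh2b1 (-1.28 ± 0.29) and Rps6ka2 (-1.08 ± 0.24) were lower. Of these 10, Fgfbp3 lost its call without T5 replicate B (adjusted p = 0.0673). Plat (2.83-fold, at 57.4 ± 3.92 CPM in T5), Fgf18 (1.44 ± 0.30), Ptpn1 (1.52 ± 0.26), Shc1 (0.93 ± 0.24), Nras (0.82 ± 0.24), Igfbp3 (0.77 ± 0.26) and Akt2 (0.67 ± 0.26) were also higher, and Adam10 (-0.77 ± 0.24) and the ERK gene Mapk3 (-0.81 ± 0.27) lower. Of these, Akt2 lost its call under 10 of 15 alternatives, Mapk3 under 6, Igfbp3 under 3, Nras and Adam10 under 2 each, and Shc1 under 1. Fgf21, a hormone-like FGF, was called higher (adjusted p = 0.000389) at 0.0514 ± 0.0135 CPM in T0 and 0.404 ± 0.000352 CPM in T5. Its log2 fold change ran from 2.78 to 3.32 under the alternatives. The T0 level rests on few counts, and how far the fitted fold change depends on the prior count was not tested.

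The genes whose level followed that of a member most closely over the 9 replicates were searched among 2382 well expressed genes without an overlapping gene. The T0 replicates stand apart from the rest, so these Pearson correlations of log2 CPM mostly reflect the groups and are given as a description. The closest were F2r for Met (r = 0.982), Urb1 for Fgfr1 (0.995), Gmcl1 for Fgfr4 (0.994), Lnx2 for Igf1r (0.991), Ifnar1 for Insr (0.995), Zim1 for Irs1 (0.991) and Plekhf2 for Irs2 (0.990). F2r, the thrombin receptor gene, had means of 71.4, 227 and 173 CPM in T0, T3 and T5. C1qtnf3, the closest to Igf1 (0.990), had 30.2, 12.7 and 26.6 CPM, the same low in T3. Hgf (Ndst4, 0.950) and Fgf2 (Tpm1, 0.897) had no gene as close.

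Markers of the cell types that a sort could hold were measured alongside. The 10 muscle stem cell markers summed to 4860 to 7215 CPM in T0, 2391 to 3015 CPM in T3 and 1739 to 1816 CPM in T5, with 2 higher and 4 lower in T3 than in T0 and a median log2 fold change of -0.15. The fall of the sum from T0 to T3 was carried by Pax7 (3613 to 315 CPM). Calcr (401 to 122 CPM), Cdh15 (224 to 38.4 CPM) and Spry1 (230 to 47.1 CPM) fell too, and Sdc4 (150 to 939 CPM, also in the FGF list) and Vcam1 (171 to 259 CPM) rose. The sum of the endothelial markers was highest in T3, like Fgfr1 and Met, at 268 to 315, 468 to 564 and 283 to 284 CPM. Only 4 of the 10 were called higher in T3 than in T0: Pecam1, Cdh5, Flt1 and Egfl7. Tek, the largest part of the sum (155, 227 and 138 CPM), was not called (edgeR adjusted p = 0.0594) and its replicates overlapped. Kdr, Tie1, Emcn, Esam and Vwf were not called either. Pericyte and smooth muscle markers were highest in T0, like Fgfr4, Insr and Irs1, at 697 to 1126, 284 to 536 and 245 to 257 CPM, with 1 of 10 higher and 4 lower. Notch3 alone had 738, 214 and 93.1 CPM. Myofibre markers summed to 122 to 135, 154 to 217 and 138 to 140 CPM, with 10 of 12 higher and 1 lower. Macrophage (4 of 10 higher), Schwann cell (2 of 7 higher, 1 lower), lymphocyte (5 tested, median log2 fold change -0.33) and erythroid markers (1 of 4 lower) summed to at most 61.6 CPM in every replicate. No marker was at 0 in every replicate of a group, and the part of these cells in the changes of the 10 genes was not tested.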

How the data were processed

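The deposited values are raw read counts, 1 column for each of 11 libraries and 1 row for each of 48709 genes. The submitters' processing notes name GRCm38, DESeq2 1.12.3, R 3.3.1, STAR 2.5.0a and featureCounts 1.4.6-p3. The annotation release, strand setting and filters are not given in the sources used here. Gene IDs were matched to GENCODE vM21, ignoring versions (48349 matched, 360 did not), and promoters came from RefSeq.

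Counts were tested in R 4.3.3 with edgeR 4.0.16 (quasi-likelihood F test, two-sided, TMM, filterByExpr, all 3 groups in 1 fit, no covariate). The alternatives were upper quartile and DESeq2 size factors, DESeq2 1.42.0, no filter, the 4 T5 libraries as replicates, the 2 groups alone, a replicate block and leaving out each replicate. The code was tested on simulated data. Ratios used a pseudocount of 0.5, with 0.1 and 5 as alternatives.

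The 10 genes, 5 pathway lists and 9 marker lists were chosen with earlier results of these data known. From each pathway list the text names up to 3 called genes with the largest rise and fall that overlap no other gene and whose groups do not overlap, and for each member the genes with the highest Pearson correlation. 1 gene that this rule names is not reported here. Columns were assigned to groups by name. Their numbers match no title letter and are used only to name replicates, apart from the replicate block.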

Additional observations from a re-analysis of the deposited data

Results flagged for a closer look

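In T3, 1 replicate of Igf1 and 1 of Irs1 stood far from the others by Dixon's criterion for groups of 4 at the 95% level. Both were replicate 3 and both were the highest: Igf1 was at 12.9 CPM against 8.57 to 8.87 CPM in the other replicates (gap over range 0.931), and Irs1 at 61.9 CPM against 37.5 to 38.1 CPM (0.978). Chance flags about 1 in 20 groups, and 13 were examined. Without that replicate the T3 against T0 changes were still called.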

How the results depend on the processing

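Of 160 recomputed values for the 10 genes in T3 against T0, 149 kept their direction and call, as did 145 of 150 in T5 against T3 and 144 of 150 in T5 against T0, and no called gene reversed. The counts of calls with T5 moved most. Calls in T5 against T3 over all genes (411 higher, 284 lower) were 268 higher with DESeq2 size factors, 456 lower with upper quartile factors, 688 lower with DESeq2, 695 and 518 without the filter, 923 and 1199 with 4 T5 libraries, and 1348 and 1645 with the 2 groups alone. Leaving out a replicate gave 143 to 922 higher and 41 to 1581 lower, the extremes without T5 replicate B and T0 replicate 3. Among pathway genes (1 and 1) the counts were 0 lower with upper quartile factors, 2 higher without the filter, 3 and 4 with 4 T5 libraries, 6 and 8 with the 2 groups alone, 2 lower with DESeq2, and 0 to 4 higher and 0 to 9 lower leaving out a replicate. The 1 member called lower, Fgfr1, was 0 with DESeq2 size factors and 0 to 1 leaving out a replicate. In T3 against T0, upper quartile factors gave 60 higher (43) and 21 lower pathway genes (33), so the balance of rises and falls depended on the scaling. In T5 against T0 they gave 7144 higher genes (4229) and 56 higher pathway genes (31), and leaving out a replicate gave 2531 to 8280 higher genes, 15 to 42 lower pathway genes (27), with the same libraries at the extremes, and 1 (without T5 replicate B) to 3 (without T0 replicate 1) higher members (2). The cause of these shifts was not tested. A replicate block on column number gave 4956 higher and 7109 lower genes in T3 against T0 (4807 and 7332) and the same 3 and 5 counts of members. Same-numbered replicates correlated at -0.226, 0.374 and 0.307, and replicates with different numbers at -0.457 to 0.47. These few mixed values cannot show whether the numbers pair the samples. No paired analysis was possible for T5 because its columns share no number with the others.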

Other observations

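Several pathway genes outside the rule for named genes, chosen after their values were seen, moved by more than most. Each overlaps another gene in the annotation, which can make its count less certain. The shares of overlapping genes given here count only genes whose ID and version both match the count table, so they may be too low. For Pik3r3 no overlapping gene matched in this way. Pik3r1, the main regulatory subunit of PI3 kinase, had 750 ± 301 CPM (SD, n = 3) in T0 and fell to 105 ± 25.8 CPM (n = 4) in T3, with 77.8 ± 2.58 CPM (n = 2) in T5 and a log2 fold change of -2.83 ± 0.27 for T3 against T0 (edgeR adjusted p = 2.18e-08). Pik3r2, a second regulatory subunit, fell from 42.7 ± 11.5 to 10.4 ± 0.716 CPM (log2 -2.03 ± 0.21, adjusted p = 6.2e-08). Pik3r3, another member of that family, rose from 7.47 ± 1.03 to 21.9 ± 4.38 CPM (log2 1.55 ± 0.22, adjusted p = 3.72e-06). The matched genes that overlap Pik3r1 had 1.4 to 2.05% of its count, and 6330537M06Rik 5.18 to 16.6% of that of Pik3r2.

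On the MET side, Cd44, whose variants serve MET as a coreceptor, rose from 46.6 ± 6.01 to 1038 ± 58.7 CPM (log2 4.48 ± 0.25, adjusted p = 1.96e-11) and was at 975 ± 91.8 CPM in T5. Grb2, the adaptor that ties receptors to RAS, rose from 51.4 ± 11.8 to 193 ± 33.4 CPM (log2 1.91 ± 0.23, adjusted p = 4.64e-07). Stat3, a transcription factor downstream of several receptors, rose from 92.3 ± 23.5 to 682 ± 83.8 CPM (log2 2.89 ± 0.25, adjusted p = 5.42e-09), with Stat5a next to it at 6.99 to 26.7% of its count. The matched genes that overlap Cd44 and Grb2 had at most 1.68% and 0.0998% of the count.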
